A study of Mus musculus with 2 samples.

Results

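The cells described here are Fgf8/Fgf17 cells of the telencephalic vesicle, progenitors that held at least 2 transcript molecules of the ligand genes Fgf8 and Fgf17. They numbered 594 of 8539 progenitor-side cells in a single cell RNA sequencing (scRNAseq) library of the whole vesicle, and of 20110 cell barcodes in the series. Molecules were counted by their unique molecular identifiers (UMIs), and levels are given in CPM, for which the UMIs of a group of cells were summed and scaled to a total of 1000000. The library was made from the telencephalic vesicles of 3 wild-type (WT) C57BL/6J embryos labelled E12, which came from 2 litters and were pooled. The study's methods give their age as E11.5 to E12. A second library, used only at the end, was pooled from explants around the septum of 8 PGKCre;Rosa26YFP embryos at E11.5 and 4 Dbx1Cre;Rosa26tdTomato embryos at E12.5, each age from 2 litters. In these the PGK promoter drives Cre broadly and Dbx1Cre marks cells with a history of Dbx1 expression, while the labels record the genotype of the pool as wild-type and the strain as C57BL/6J. Embryos cannot be told apart within either pool, so that each group is 1 sample. No significance test could therefore be made, and every interval below is a 95% interval for counting error only.

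FGF8, FGF17 and FGF18 are secreted ligands of the same subfamily. In the early forebrain, Fgf8 and Fgf17 are transcribed at the rostral midline, in the commissural plate and the septal primordium, which acts as a patterning centre for the telencephalon. Their receptors signal through the MAPK cascade, and the cascade switches on ETS factors (Etv1, Etv4, Etv5) and a set of its own inhibitors, the Sprouty, Spred and Dusp proteins and the membrane protein Il17rd. Other centres lie at the cortical hem, a source of Wnt and BMP ligands, and in the ventral telencephalon, a source of SHH.

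Barcodes were kept when they had at least 2500 UMIs and a mitochondrial share under 6%, which left 11498 of 14283. A cell was placed on the progenitor side when the UMIs of 7 progenitor genes (Sox2, Hes1, Hes5, Vim, Nes, Fabp7 and Slc1a3, together A) exceeded those of 6 neuronal genes (Tubb3, Stmn2, Dcx, Elavl3, Gap43 and Mapt, together N). Such a cell is called an A>N cell below. The Fgf8/Fgf17 cells were the A>N cells with at least 2 UMIs of Fgf8 and Fgf17 and at most 1 UMI of the Wnt signal genes Wnt3a, Wnt2b and Rspo2. These measured values chose the cells, so that the 18 genes of the rule are only described. The cells made up 6.96% of A>N cells (exact Clopper-Pearson interval 6.43 to 7.52%).

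The number of Fgf8 and Fgf17 UMIs varied widely among the cells chosen. It ran from 2 to 138 per cell with a median of 10, and 313 of the 594 cells (52.7%) had 10 or more. Fgf17 was found together with Fgf8 in 351 cells (59.1%), without it in 219 (36.9%), and Fgf8 alone in 24 (4.04%). The median cell held 2 UMIs of Fgf8 and 6 of Fgf17. Just inside the threshold, 53 cells had 2 UMIs and 46 had 3. Just outside it, 375 A>N cells had 1 UMI, while 7407 had none and 163 with 2 or more were left out because of their Wnt signal genes. The level was 273.6 CPM for Fgf8 and 437.2 CPM for Fgf17, against 4.44 and 8.31 CPM in the other 7945 A>N cells.

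The same count of UMIs was rare in cells that are not neural. Of the 869 A>N cells in clusters led by genes of mesenchyme, of erythroid cells, or of macrophages and endothelium, 10 held at least 2 UMIs of Fgf8 and Fgf17 (1.15%, interval 0.553 to 2.11%). In the other clusters the number was 747 of 7670 cells (9.74%, interval 9.08 to 10.4%). Median depth was alike, at 11284 UMIs in the former and 11250 in the latter. It was 12008 UMIs in the Fgf8/Fgf17 cells and 11215 in the other A>N cells, with median mitochondrial shares of 2.65 and 2.58%. The Fgf8/Fgf17 cells lay nearer the neuronal side of the rule, with a median A of 25 against 34 UMIs and a median N of 6.5 against 4. Scrublet called 40 of the Fgf8/Fgf17 cells doublets (6.73%) and 453 of the others (5.70%).

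Grouping all A>N cells by their expression, with the genes of the rule left out, placed most of the Fgf8/Fgf17 cells in a single cluster. Of 20 clusters, the cluster led by Pax5, Gm29478, Fgf18, Glis3, Pax2, Megf11, Il17rd, Zic4, Etv4 and Spry1 held 456 of the 594 (76.8%, interval 73.2 to 80.1%), and they made up 68.5% of its 666 cells. Its other cells had no UMI of either ligand (140 cells), 1 UMI (52 cells), or more than 1 UMI of the Wnt signal genes (20 cells, some of which can fall in the first groups). The remaining 138 Fgf8/Fgf17 cells were spread thinly, with 22 in a cluster led by Ina, Dlx6os1 and Nrxn3 and 20 each in clusters led by Prkg2, Ror2 and Adamts18 and by Shh, Fndc1 and Cdh19. None lay among the 510 cells of the cluster led by Ptx3, Mctp1 and Gm38604. A cluster of 127 cells with a median depth of only 3723 UMIs held 14.

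**Figure D1:**
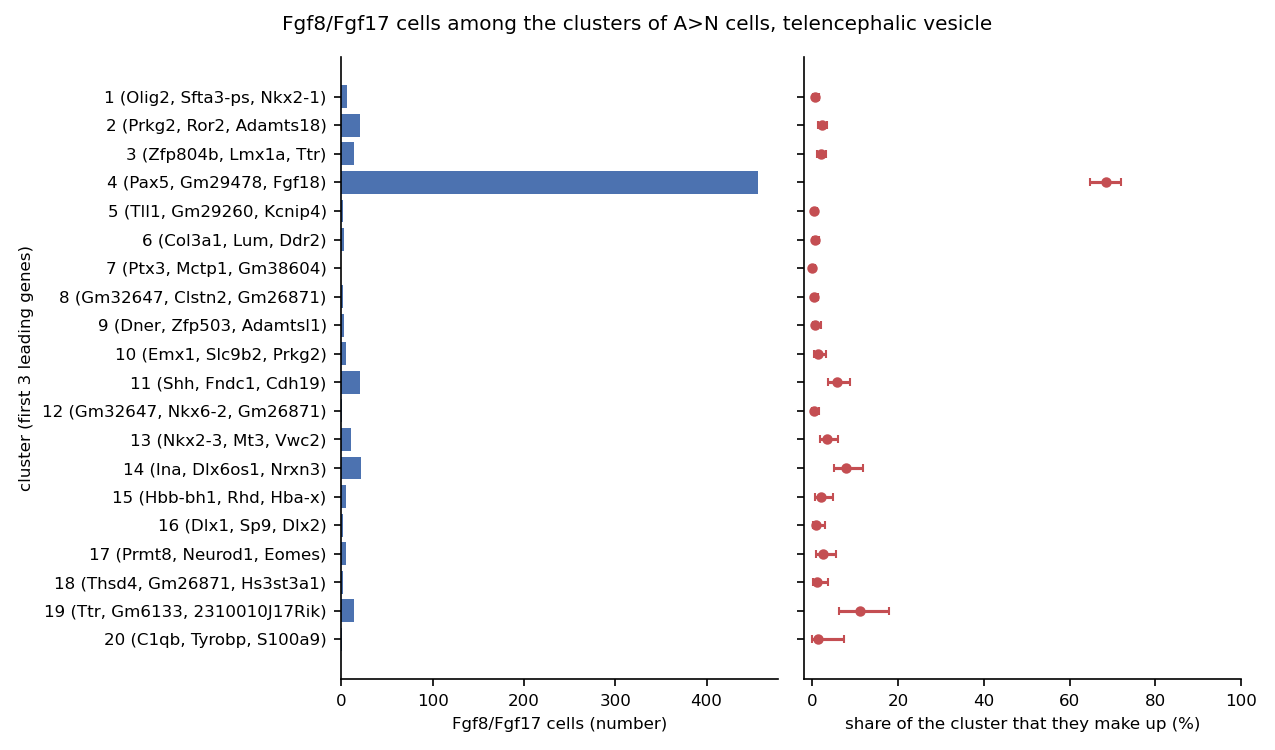
Left, number of Fgf8/Fgf17 cells (horizontal axis) in each of 20 clusters of A>N cells (vertical axis, with the first 3 leading genes of each), and right, the share of each cluster that they make up in percent, with exact 95% intervals. Cluster 4 holds 456 of the 594 cells, which are 68.5% of it, while the next highest share is 11.0%.

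The genes that mark these cells, apart from the ligands of the rule, were Six3 and Spry1, and both were higher than in the other A>N cells together. Six3, a homeobox factor of the anterior forebrain, lies on the plus strand of chromosome 17 (chr17:85613608-85629302, mm10). Its level was 287.5 CPM in the Fgf8/Fgf17 cells (interval 278.4 to 296.8) and 89.98 CPM in the other A>N cells (88.5 to 91.5), a ratio of 3.196 (interval 3.08 to 3.31). Among the clusters Six3 was not highest in the one that held most of the Fgf8/Fgf17 cells, at 260.2 CPM, but in the cluster led by Shh, Fndc1 and Cdh19, at 298.6 CPM, which held 20 of them. A Six3 UMI was present in 89.2% of the Fgf8/Fgf17 cells and in 52.1% of the other A>N cells, and in 75% and 36.8% after each cell was thinned to 6000 UMIs. Spry1, an inhibitor of FGF receptor signalling, stood at 201.5 CPM (193.9 to 209.4) against 26.1 CPM (25.3 to 27.0), a ratio of 7.71 (7.34 to 8.10). It was found in 87.0 and 23.3% of cells, and in 69.9 and 11.8% after thinning. Position in the tissue was not measured, so that the septal origin named for such cells was not checked in this library.

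A gene was counted as higher or lower when its level in the Fgf8/Fgf17 cells differed from that in the reference by at least 1.5 times. The higher group also had to hold at least 10 CPM, and genes that reached 10 CPM in either group are called tested. A gene that reached 10 CPM only in the group where it was high could be called in that direction only. This holds for both directions, and so for genes called lower such as Fgfr3, Shh and Eomes below. Against all other A>N cells, 457 of 9437 genes were higher (4.84%) and 358 were lower (3.79%), and the median ratio over all of them was 1.01. This reference also held cells that the rule on Wnt signal genes had removed from the Fgf8/Fgf17 cells, as well as 860 cells of the non-neural clusters (10.8%, against 9 of the Fgf8/Fgf17 cells, 1.52%). Ratios were therefore also taken against a neural reference of 5870 A>N cells, which met the same Wnt limit and lay outside the non-neural clusters, with 585 Fgf8/Fgf17 cells. Here 645 of 9397 genes were higher (6.86%) and 328 were lower (3.49%). The neural reference was chosen after the data had been seen, and its values are given beside each list in which it changed a call.

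Among FGF ligands outside the rule, only Fgf18 and Fgf15 reached 10 CPM, and both were higher. Fgf18 reached it only in the Fgf8/Fgf17 cells, so that it could only be called higher once tested. Fgf18, on the minus strand of chromosome 11 (chr11:33117430-33147400), stood at 48.6 CPM in the Fgf8/Fgf17 cells and 1.62 CPM in the other A>N cells, a ratio of 30.1 (25.9 to 35.01). An Fgf18 UMI was present in 45.6% of the Fgf8/Fgf17 cells and in 2.06% of the other A>N cells. Fgf15, a ligand of the forebrain and hindbrain ventricular zone, stood at 93.6 against 33.2 CPM (ratio 2.82, 2.65 to 3.00). The other 12 ligand genes were under 10 CPM in both groups. Fgf3 reached 5.10 against 0.941 CPM and Fgf2 4.34 against 1.404 CPM.

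The feedback and target genes of the pathway were higher as a group. Of 17 genes listed, 15 were tested, 11 were higher and none was lower, with a median ratio of 2.13 beside 1.01 for all genes. Of all tested genes, 4.84% were higher. Some of the 11 reached 10 CPM only in the Fgf8/Fgf17 cells, such as Etv4 against both references. Dusp4, Dusp5 and Spred3 did so against the neural reference. Such genes could only be called higher once tested, and they enter the median. Among the inhibitors of the cascade, the level of Il17rd was 258.1 against 34.2 CPM (ratio 7.54, 7.22 to 7.87) and that of Spry2 was 62.2 against 11.48 CPM (ratio 5.41, 4.98 to 5.89). Dusp6, which dephosphorylates ERK, stood at 87.6 against 22.9 CPM (ratio 3.82, 3.57 to 4.09), Dusp4 had a ratio of 2.77, and Spred3 of 2.13. The ETS factors ranged from Etv4, at 48.2 against 7.03 CPM (ratio 6.85, 6.19 to 7.56), over Etv5 (2.84) to Etv1 (1.89). Spred1 (1.59) and Dusp5 (1.57) were close to the threshold, and against the neural reference Spred1 was just short of it (ratio 1.499), which left 10. The 4 tested genes past neither threshold were Ccnd1 (1.39), Flrt3 (1.38), Spred2 (1.36) and Flrt2 (0.69). Spry4 (4.26 CPM) and Spry3 (0.913 CPM) were too low to test.

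The proximal promoters of Spry1 and Dusp6, from this list, and of Pax5, among the 15 highest genes below, are shown because ETS factors, 3 of which were higher here, recognise a GGAA core. The sequences are those of RefSeq on GRCm38.p6, from 250 bases before to 50 bases after the annotated start, read 5′ to 3′ on the strand of the gene. The letters CGGAAG, or CTTCCG for the opposite strand, are in capitals. Spry1 lies at chr3:37639697-37639996 on the plus strand, Dusp6 at chr10:99262981-99263280 on the plus strand, and Pax5 at chr4:44710645-44710944 on the minus strand. The RefSeq start of Pax5 lies upstream of the gene position given below, which is from another annotation. Its window falls wholly outside that position.
Spry1: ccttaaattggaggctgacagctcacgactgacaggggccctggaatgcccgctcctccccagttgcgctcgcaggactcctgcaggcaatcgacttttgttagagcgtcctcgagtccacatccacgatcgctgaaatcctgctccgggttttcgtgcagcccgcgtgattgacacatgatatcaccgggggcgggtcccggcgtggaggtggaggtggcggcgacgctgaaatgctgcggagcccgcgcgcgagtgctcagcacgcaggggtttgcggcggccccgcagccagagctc
Dusp6: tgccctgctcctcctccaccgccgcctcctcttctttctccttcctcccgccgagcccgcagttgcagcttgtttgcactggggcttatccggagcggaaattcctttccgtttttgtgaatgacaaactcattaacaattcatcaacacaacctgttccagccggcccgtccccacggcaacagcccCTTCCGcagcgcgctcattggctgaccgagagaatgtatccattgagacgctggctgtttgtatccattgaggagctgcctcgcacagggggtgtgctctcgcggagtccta
Pax5: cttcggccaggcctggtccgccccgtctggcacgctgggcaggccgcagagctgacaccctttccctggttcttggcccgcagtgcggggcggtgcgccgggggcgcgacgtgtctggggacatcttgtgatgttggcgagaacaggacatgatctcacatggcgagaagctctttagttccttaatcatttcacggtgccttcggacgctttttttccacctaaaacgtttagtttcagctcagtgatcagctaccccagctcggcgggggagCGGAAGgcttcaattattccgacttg
The letters occurred once each in the windows of Dusp6 and Pax5 and not in that of Spry1. The shorter core GGAA was not searched for by itself, and it also occurs without these letters, as in the Spry1 window. They were found in 3 of the 12 feedback and target genes with a promoter in the table (Spred1, Dusp6 and Spred2) and in 16.9% of all 32851 promoters of the same length. Of the 15 highest genes, 11 had a promoter in the table and 2 held the letters (18.2%). A match describes the letters only.

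Levels also differed along the number of Fgf8 and Fgf17 UMIs in a cell, among A>N cells within the Wnt limit. The rule used this same number to choose the cells, so that these levels are a description only. Spry1 stood at 16.04 CPM in the 6428 cells without a UMI of either ligand, at 35.4 CPM with 1 UMI, at 82.7 CPM with 2, at 131.5 CPM with 3 to 4, at 175.7 CPM with 5 to 9, and at 247.7 CPM in the 313 cells with 10 or more. Il17rd went from 28.2 to 335.6 CPM over the same groups, Six3 from 86.6 to 354.6 CPM, and Pax5 from 0.564 to 66.4 CPM. Deeper cells hold more UMIs of every gene, and median depth lay between 9718 and 15503 UMIs in these groups. With each cell thinned to 6000 UMIs before it was grouped, Spry1 went from 17.8 CPM without a UMI over 96.9 CPM with 1 to 317.7 CPM with 10 or more, and Six3 from 95.7 over 148.3 to 485.8 CPM.

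**Figure D2:**
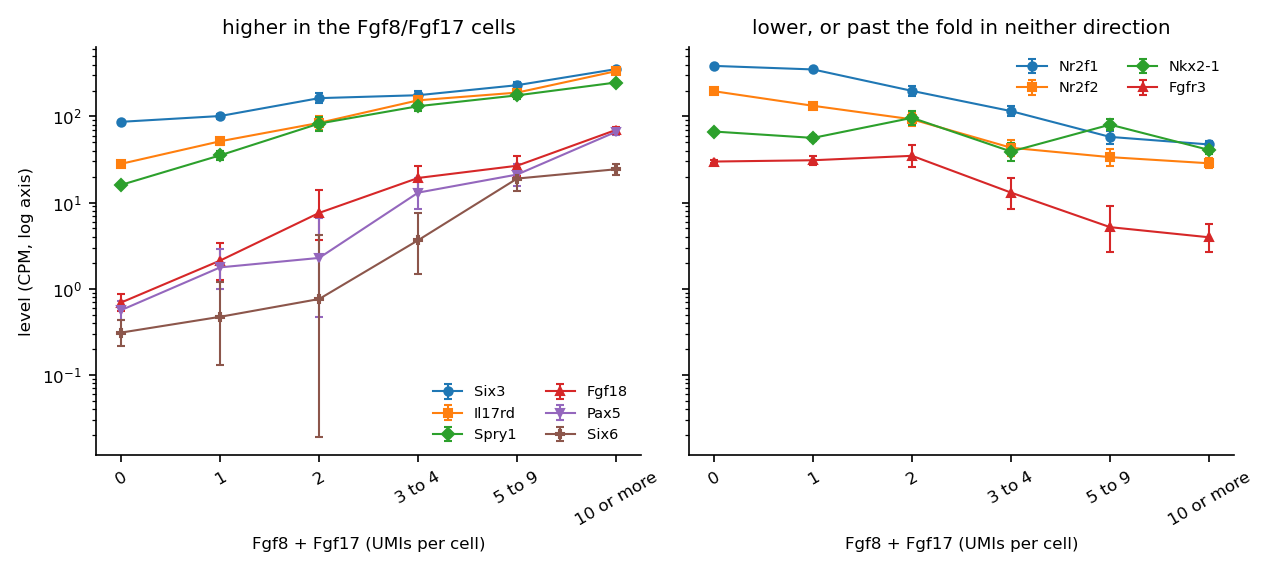
Level of each gene in CPM (vertical log axis) in A>N cells within the Wnt limit, grouped by their Fgf8 and Fgf17 UMIs (horizontal axis), with exact Poisson 95% intervals. Spry1 goes from 16.04 to 247.7 CPM and Nr2f1 from 386.2 to 47.3 CPM between the first and the last group.

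Of 5 tested receptor genes and partners, none was higher and 2 were lower, where 3.79% of all genes were lower. Fgfr1, the receptor with the most UMIs in these cells, stood at 143.3 against 118.9 CPM (ratio 1.20), and the adaptor Frs2 had a ratio of 1.02. Fgfr3 stood at 8.60 against 34.4 CPM, 4.01 times lower in the Fgf8/Fgf17 cells (ratio 0.25, 0.205 to 0.301), and Fgfr2 at 115.6 against 211.0 CPM (ratio 0.55, 0.520 to 0.577). Fgfr3 was 29.9 CPM in cells without a ligand UMI and 3.95 CPM in cells with 10 or more. Fgfrl1, a receptor without a kinase domain, had a ratio of 0.74, and of 0.64 against the neural reference.

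Of 9 transcription factors of the rostral midline, all of which were tested, 8 were higher and none was lower, with a median ratio of 2.95. The share of all genes that were higher was 4.84%. Several were zinc finger factors of the Zic family. Zic4 stood at 373.0 against 63.2 CPM (ratio 5.91, 5.71 to 6.11), Zic1 at 430.5 against 146.0 CPM (2.95, 2.86 to 3.04), and the ratios of Zic5 and Zic2 were 2.62 and 2.34. Sp8, a factor of the rostral and medial telencephalon, stood at 93.7 against 22.6 CPM (4.16, 3.89 to 4.44), and Vax1, of the ventral midline, at 18.9 against 6.62 CPM (2.85, 2.47 to 3.28). Vax1 reached 10 CPM only in the Fgf8/Fgf17 cells, so that it could only be called higher once tested. Against the neural reference the same 8 were higher and the median ratio was 4.64. Six3os1, transcribed antisense to Six3 and overlapping it, had a ratio of 4.80. Whether counting separated the strands is not given in the sources used here.

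The 15 genes with the highest ratios, among those with at least 20 CPM, included genes best known from other parts of the brain. Pax5, a paired-box factor of the midbrain-hindbrain boundary, lies on the minus strand of chromosome 4 (chr4:44524757-44710487) and stood at 44.2 against 0.901 CPM (ratio 49.1, 40.6 to 59.6). Pax2, of the same boundary and the optic stalk, stood at 28.0 against 0.994 CPM (28.2, 23.2 to 34.3). Pax5 was found in 41.6% of the Fgf8/Fgf17 cells and 1.18% of the others, and Pax2 in 27.8 and 1.41%. Pax8 reached only 7.15 CPM, with a ratio of 154 (71.99 to 394) on 7 UMIs in the reference. En1 and En2, the homeobox genes that define the midbrain-hindbrain boundary with them, had no UMI in any of the 594 cells (0 of 594), a count that permits a share of cells with a UMI of up to 0.505% (3 of 594).

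Several other genes of the 15 encode surface proteins. The tight junction protein Cldn3 had a ratio of 14.5 (12.2 to 17.3) and the epithelial adhesion protein Epcam of 6.86 (6.27 to 7.49), at 60.0 against 8.74 CPM. The ratios of Megf11, Sdk2 and Tmem132d, which encode transmembrane proteins, were 10.2, 6.30 and 6.01. Glis3, a zinc finger factor, stood at 368.4 against 41.8 CPM (8.81, 8.49 to 9.15). The long RNA Gm29478, next to Zic4 on chromosome 9, stood at 1944 against 210.8 CPM (9.22, 9.07 to 9.37). Dmtn (9.63, 8.29 to 11.2) begins 154 bases beyond the end of Fgf17 on the same strand, and whether transcripts running past that end were counted for it was not tested. Beside Fgf8, Npm3 had a ratio of 2.18. The list is completed by Fgf18, Spry1, Il17rd, Etv4 and Zic4, and all 15 were also higher against the neural reference, where several ratios were larger, such as 62.7 for Pax5, 67.9 for Fgf18, 57.2 for Pax2, 48.1 for Cldn3, 29.0 for Tmem132d and 24.5 for Glis3.

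The 15 genes with the lowest ratios fell into groups that depended on the reference. The nuclear receptor genes Nr2f1 and Nr2f2, which pattern the caudal and lateral telencephalon, were lower against both. Nr2f1, on the minus strand of chromosome 13 (chr13:78188973-78199757), stood at 74.2 against 366.8 CPM (ratio 0.20, 0.190 to 0.215), and 399.4 CPM in the neural reference (0.19). Nr2f2 stood at 38.0 against 243.4 CPM (0.16, 0.143 to 0.171), and 179.1 CPM in the neural reference (0.21). An Nr2f1 UMI was found in 25.9% of the Fgf8/Fgf17 cells and 65.8% of the others. Of the transcripts beside them, Gm29683 and B130024G19Rik near Nr2f2 and Gm38604 and A830082K12Rik near Nr2f1 had ratios between 0.13 and 0.21 against the first reference and between 0.15 and 0.20 against the second. B130024G19Rik and A830082K12Rik overlap these genes on the opposite strand. The ephrin receptor gene Epha3 (0.165), Filip1 (0.190), Ptx3 (0.205) and Lrp1b (0.161) were also lower against both, with ratios of 0.141, 0.155, 0.194 and 0.563 against the neural reference.

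The other 5 of the 15 were not lower against the neural reference. Lmx1a, a factor of the hem and roof plate, stood at 3.04 CPM in the Fgf8/Fgf17 cells and 37.0 CPM in all other A>N cells (ratio 0.08), but at 1.07 CPM in the neural reference (ratio 2.74). The Wnt potentiator gene Rspo3 stood at 36.4 CPM against 263.5 CPM (0.14) and 24.2 CPM in the neural reference (1.52, 1.38 to 1.68). Zfp804b went from a ratio of 0.19 to 3.64. Crabp1 went from 0.14 to 1.18 and the collagen gene Col3a1 from 0.20 to 2.09, both under 10 CPM in either group once the non-neural clusters were left out.

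Some transcription factors of the pallium and of the subpallium were lower, and none that could be tested was higher. Of 10 pallial and caudal selectors, 6 were lower and none was higher against all other A>N cells (median ratio 0.60), and 7 were lower against the neural reference (median ratio 0.58). Emx1, a marker of the dorsal pallium, stood at 17.3 against 30.3 CPM (0.57, 0.496 to 0.651), Pax6 at 69.8 against 112.4 CPM (0.62, 0.580 to 0.663), Dmrt3 at 12.02 against 40.8 CPM (0.29) and Tfap2c at 15.7 against 40.3 CPM (0.39). Lhx2 had ratios of 0.69 and 0.57 against the first and second reference, Emx2 of 0.86 against the first. Of 6 tested subpallial factors, 3 were lower and none was higher, and against the neural reference 5 of 7 were lower. Beside both lists, 3.79% of all genes were lower against the first reference and 3.49% against the second. Some subpallial factors reached 10 CPM only in the reference, such as Gsx2 in both and Dlx1 in the neural reference. These could only be called lower once tested. Gsx2, a factor of the lateral ganglionic eminence, stood at 4.41 against 18.7 CPM (0.24), and the Dlx1 and Dlx2 ratios were 0.28 and 0.34. Nkx2-1, of the medial ganglionic eminence and preoptic area, stood at 53.1 against 55.1 CPM (0.96, 0.890 to 1.04), and a UMI was found in 20.4 and 24.2% of cells. Olig1 was under 10 CPM, at 9.13 against 2.82 CPM.

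For Wnt and BMP signals, the direction of most genes turned with the reference. Of 14 tested BMP signal genes, 9 were lower and none was higher against all other A>N cells, with a median ratio of 0.58. Against the neural reference, 6 of 11 were higher and only Id4 (0.45) was lower, with a median ratio of 1.51. Of the 6, Bmp4, Bmp5, Bmp6 and Bmp7 reached 10 CPM only in the Fgf8/Fgf17 cells. These genes could therefore only be called higher, and they enter the median. Bmp4 stood at 15.7 CPM in the Fgf8/Fgf17 cells, 23.5 CPM in all other A>N cells and 0.780 CPM in the neural reference. The ligand gene Bmp5 had ratios of 1.37 and 9.75 against the first and second reference, Bmp6 of 0.34 and 7.21 and Bmp7 of 0.86 and 3.07, while those of the BMP target genes Id1 and Id3 were 0.57 and 2.75 and 0.38 and 1.51. Of 11 tested Wnt signal genes, 5 were lower and Nkd1 was higher against all other A>N cells, whereas 5 of 9 were higher and Wnt7a was lower against the neural reference. Of all genes, 4.84% were higher and 3.79% lower against the first reference, and 6.86 and 3.49% against the second. Wnt8b stood at 81.3 CPM against 111.1 and 31.4 CPM in the 2 references, Rspo1 at 115.4 CPM against 104.2 and 22.1 CPM, and the Wnt target Axin2 at 27.4 CPM against 37.1 and 16.5 CPM. Nkd1, a feedback inhibitor of the pathway, had a ratio of 1.90 against the first.

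Among secreted antagonists, all 4 tested Wnt antagonist genes were lower against all other A>N cells. Sfrp1 had ratios of 0.57 and 0.47 against the first and second reference and Sfrp2 of 0.58 and 0.61. Dkk2 and Apcdd1 were too low to test against the neural reference, where their ratios were 3.25 and 1.15. The Wnt-inactivating enzyme gene Notum and the BMP antagonist gene Grem1 were too low to test, at 4.34 against 0.238 CPM and 7.76 against 0.464 CPM, with ratios of 18.2 (11.8 to 28.4) and 16.7 (12.2 to 23.0).

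**Figure D3:**
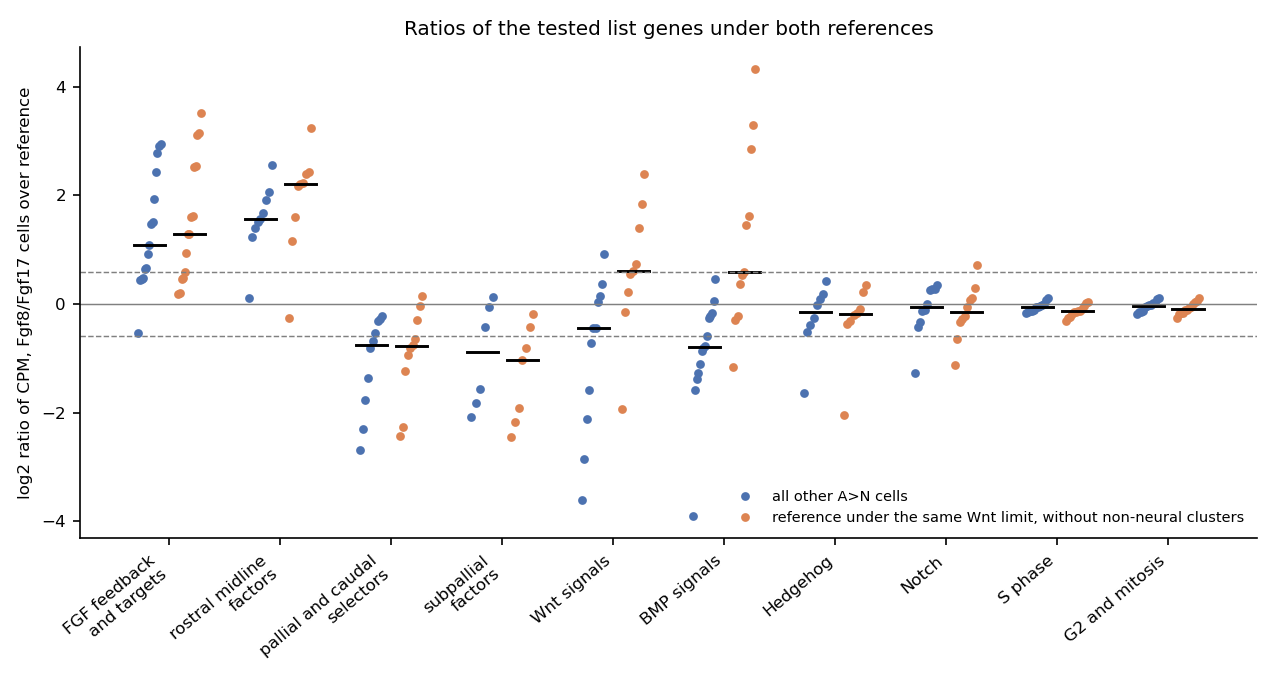
Log2 ratio of CPM between the Fgf8/Fgf17 cells and each reference (vertical axis) for the tested genes of 10 lists (horizontal axis), with points for genes, black bars for list medians and dashed lines at 1.5 times. The medians of FGF feedback (2.13) and rostral midline genes (2.95) are above 1.5 under both references, while that of BMP signals goes from 0.58 to 1.51.

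For Hedgehog and Notch genes, 1 of each list passed the threshold, where 3.79% of all genes were lower. Of 8 tested Hedgehog genes only the ligand gene Shh was past the threshold, at 3.73 against 11.7 CPM (0.32, 0.236 to 0.425), while its target Ptch1 stood at 111.2 against 104.7 CPM (1.06). Of 10 tested Notch genes only the effector Hey1 was, at 11.3 against 27.0 CPM (0.42, 0.352 to 0.491), and Notch1 (0.74), Dll1 (0.92) and Jag1 (0.79) were not. Against the neural reference Notch1 was lower as well (0.64) and Notch2 was higher (1.64). None of 12 S phase genes and none of 12 genes of G2 and mitosis passed the threshold in either direction, with median ratios of 0.97 and 0.98. Mki67 stood at 218.0 against 205.1 CPM.

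Genes of the step from apical to basal progenitor were divided. Hes6 (161.1 against 86.6 CPM, ratio 1.86), Btg2 (1.59) and the proneural gene Neurog1 (1.55) were higher, and Neurog2 (15.9 against 49.5 CPM, 0.32), Insm1 (0.49) and Eomes (7.53 against 12.49 CPM, 0.60) were lower. The same 3 were higher against the neural reference, where Gadd45g joined those that were lower. Of 11 neuronal genes outside the rule, 3 were tested and 2 of them were higher. Reln had a ratio of 3.996 (3.66 to 4.36) and Gad2 of 2.02 (1.68 to 2.41), and without the cells called doublets the ratios were 4.81 and 2.88. Nefm had a ratio of 1.27, and of the genes too low to test Slc17a6 stood at 1.14 against 2.45 CPM, Gad1 at 0.913 against 1.21 CPM and Tbr1 at 2.13 against 2.60 CPM, with Neurod6 at 0. Stmn2, a neuronal gene of the rule, stood at 187.3 against 39.3 CPM, while Tubb3 stood at 192.6 against 201.6 CPM. Of 10 progenitor genes outside the rule, Lin28a was higher (1.52) and Sox9 (0.65) and Pax6 were lower, and Sox1 had a ratio of 1.479. The shares over all genes were 4.84% higher and 3.79% lower. With the neural reference, Lin28a did not pass (1.31), and Hmga2 (0.60) and Ddah1 (0.58) were lower beside Sox9 and Pax6.

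The protocadherin gene Pcdh8 and the homeobox gene Dbx1, both at the centre of the study, were low on average in both groups. The average hides a difference among the other A>N cells. Both genes were among the leading genes of the cluster led by Ptx3, Mctp1 and Gm38604, which had to reach 20 CPM there. None of its 510 cells was a Fgf8/Fgf17 cell. Pcdh8 stood at 6.32 CPM (5.03 to 7.83) against 6.41 CPM, with a UMI in 9.43 and 9.36% of cells, and Dbx1 stood at 4.64 CPM (3.55 to 5.96) against 4.78 CPM, with a UMI in 7.74 and 5.26%. Both were too low to be tested. After thinning, 13 and 17 of 528 Fgf8/Fgf17 cells held a UMI of Pcdh8 and Dbx1. Of 7 tested protocadherin genes, Pcdh11x (80.2 against 29.4 CPM, 2.73) and Pcdh7 (206.0 against 76.2 CPM, 2.71) were higher, and Pcdh9 (0.33), Pcdh17 (0.40) and Pcdh10 (0.49) were lower. Pcdh19 was lower against the neural reference (0.56) and just short of the threshold against the first (0.67). Of 8 tested cadherin genes, Cdh7 was higher (3.50, 3.16 to 3.86), Cdh8 (0.22), Cdh11 (0.32), Cdh6 (0.51) and Cdh4 (0.52) were lower, and Cdh2, which encodes N-cadherin, had a ratio of 1.08. Beside both lists, 4.84% of all genes were higher and 3.79% lower.

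Of 17 tested guidance genes, only Slit2, the secreted repellent, was higher, at 760.4 against 278.0 CPM (2.74, 2.68 to 2.80). Epha3, Epha5 (0.38), Efnb1 (0.45) and Robo2 (0.45) were lower. Against the neural reference 4 were higher (Slit2, Slit3, Dcc and Efnb3) and 6 were lower. Over all genes, 4.84% were higher and 3.79% lower against all other A>N cells, and 6.86 and 3.49% against the neural reference. Of 7 tested retinoid genes, Stra6, the receptor for retinol binding protein, was higher (2.71, 2.24 to 3.25), and 4 were lower, among them Crabp1, Rarb (0.33) and Crabp2 (0.55), although Crabp1 and Rarb were too low to test against the neural reference. Of the 6 tested immediate early genes, Ier3 was higher (1.63), and Fos had a ratio of 0.77. The single gene higher in each of these lists against all other A>N cells is not a result about the list.

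Markers of other cell types ranged from near 0, for macrophages and endothelium, to higher levels than in the reference, for single genes of several lists. The 5 macrophage markers summed to 1.90 CPM in the Fgf8/Fgf17 cells (20.7 CPM in the reference, most UMIs in the former from Fcer1g), the 5 endothelial markers to 2.74 CPM (20.7 CPM, Pecam1, with Cdh5 at 0), and the 7 mesenchyme markers to 40.6 CPM (129.3 CPM, Col1a2). Of 5 tested mesenchyme markers 4 were lower. Against the neural reference Col1a2 alone could be tested, at 18.1 against 2.56 CPM (ratio 7.08). It reached 10 CPM only in the Fgf8/Fgf17 cells, so that it could only be called higher. The 7 erythroid markers summed to 2644 CPM against 7772 CPM, led by Hbb-y, and 6 of 6 tested were lower. Against the neural reference none of the 6 passed the threshold, with a median ratio of 0.80. Of 8 hypothalamic and eye markers, only Six6 could be tested, at 18.03 against 0.325 CPM (ratio 55.6, 40.7 to 77.2), while Rax had 3 UMIs and Nkx2-4 and Otp had none. Six6 was found in 18.4% of the Fgf8/Fgf17 cells and 0.327% of the others. Of 6 placode and surface ectoderm markers, Epcam and Krt18 (2.59, and 7.44 against the neural reference) were higher and Cdh1 was under 1 CPM. Otx2, a factor of the forebrain and midbrain listed with the choroid plexus, had a ratio of 2.43, and Ttr, the defining choroid plexus gene, stood at 0.533 against 11.3 CPM, while against the neural reference it was too low to test (0.235 CPM there). Of 6 diencephalic markers, Tcf7l2 had a ratio of 1.32 and Irx3 was at 0.

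The Fgf8/Fgf17 cells were set beside 3 other groups of A>N cells, each with at most 1 UMI of Fgf8 and Fgf17. These were 1076 hem-type cells with at least 2 UMIs of Wnt3a, Wnt2b and Rspo2, 1411 cells with at least 2 UMIs of Nkx2-1, and 544 cells with at least 2 UMIs of Emx1 within the Wnt limit. The groups overlapped in 34 (Nkx2-1 and Emx1) and 65 cells (hem-type and Nkx2-1). Median depths were 14736.5, 12885 and 32326 UMIs, so that the last group was deeper. Spry1 stood at 201.5 CPM in the Fgf8/Fgf17 cells and at 42.0, 27.3 and 17.4 CPM in the hem-type, Nkx2-1 and Emx1 cells. Six3 stood at 287.5 CPM and at 88.0, 138.7 and 13.8 CPM, and Zic4 at 373.0 CPM and at 128.3, 45.9 and 41.6 CPM. For Sp8 the next highest group was the Emx1 cells, at 47.6 CPM against 93.7 CPM. Nr2f1 stood at 74.2 CPM and at 311.5, 335.6 and 396.5 CPM. The hem-type cells had the highest levels of Rspo3 (1211 CPM), Bmp4 (98.9 CPM) and Id3 (1384 CPM), against 36.4, 15.7 and 138.7 CPM in the Fgf8/Fgf17 cells.

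**Figure D4:**
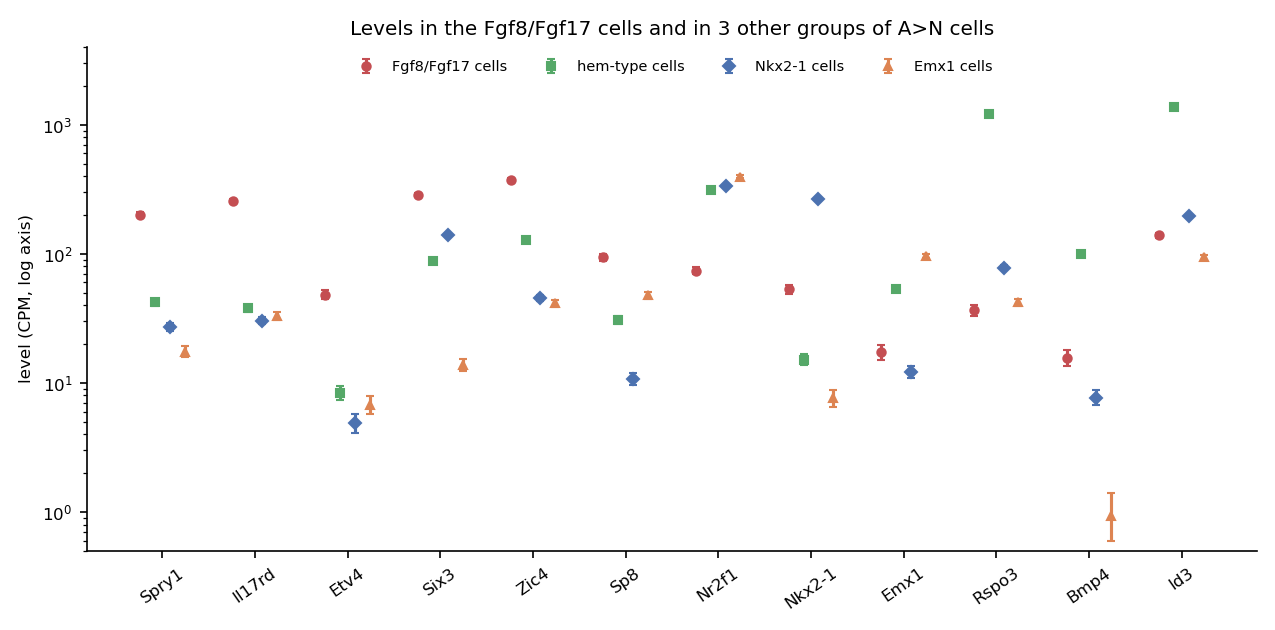
Level of 12 genes in CPM (vertical log axis) in the Fgf8/Fgf17 cells and 3 other groups of A>N cells (colours), with exact Poisson 95% intervals. Spry1, Il17rd, Etv4, Six3, Zic4 and Sp8 are highest in the Fgf8/Fgf17 cells, and Nr2f1 is lowest there at 74.2 CPM.

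The Fgf8/Fgf17 cells were not uniform. The 456 in the main cluster and the 138 outside it, with median depths of 11807.5 and 14113.5 UMIs, differed in several of the genes described above. Nr2f1 stood at 23.4 CPM (20.5 to 26.5) inside and 237.3 CPM outside, Nr2f2 at 11.48 and 123.3 CPM, Fgfr3 at 2.096 and 29.5 CPM, and Rspo3 at 16.8 and 99.6 CPM. Against all other A>N cells, 11 of 15 tested feedback and target genes were higher inside and 6 of 13 outside. Over all genes, 592 were higher inside and 184 outside. The number of genes tested is not given for either group, so that no share over all genes stands beside the list counts. The groups also differ in size, so that these counts are no contrast between them. Spry1 stood at 227.3 CPM inside and 118.8 CPM outside, Six3 at 321.3 and 179.0 CPM, and Pax5 at 54.3 and 11.9 CPM. The 140 cells of the main cluster without a ligand UMI, at a median depth of 13604.5 UMIs, were low in Nr2f1 (15.01 CPM) and Fgfr3 (1.501 CPM) as well. They had less Spry1 (48.8 CPM), Six3 (148.8 CPM), Pax5 (4.25 CPM) and Fgf18 (0.750 CPM), and more Gsx2 (31.0 CPM, against 3.29 CPM in Fgf8/Fgf17 cells of the cluster). In the same comparison Il17rd was also lower (85.1 against 302.6 CPM). Etv1 (58.3 against 53.8 CPM), Fgf15 (133.8 against 105.8 CPM) and Spred2 (133.3 against 132.7 CPM) were not. These clusters were formed from the same cells, so that these values are a description.

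Pairs of genes were also counted in single cells. Of 528 Fgf8/Fgf17 cells thinned to 6000 UMIs (66 were shallower and left out), 85 held a UMI of Nkx2-1, 43 of Emx1 and 3 of both, where the product of the shares would give 6.92. Pax5 and Six6 were found together in 30 cells, where the product would give 13.3, and Pax5 and Nkx2-1 in 16, where it would give 18.8. Six6 and Nkx2-1 were found together in 19, where it would give 9.66. Fgf8 and Fgf17 were found together in 238 cells after thinning. These numbers describe this library only.

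The same rule was applied to the septal explants, whose library was made with an older kit (version 2, against version 3.1 for the vesicle), so that ratios but not levels can be set side by side. It took 1328 of 3891 A>N cells there (34.1%, interval 32.6 to 35.6%), from tissue dissected around the septum. The rule sets a number of UMIs, so that this share cannot be compared with the 6.96% of the whole vesicle. The 2 libraries shared 1 barcode sequence. Against the other 2563 A>N cells of the explants, 365 of 7863 genes were higher (4.64%) and 172 were lower (2.19%). Of the 15 genes highest in the vesicle, 14 could be tested in the explants and all 14 were higher. Pax5, Fgf18, Pax2, Cldn3, Megf11, Dmtn, Glis3 and Sdk2 reached 10 CPM there only in the Fgf8/Fgf17 cells. Once tested, these genes could only be called higher. The ratios were 30.6 for Pax5, 39.7 for Fgf18, 54.3 for Pax2, 63.8 for Six6, 5.02 for Six3, 4.66 for Il17rd and 3.69 for Spry1, while Etv4 had 1.97. Of the 15 lowest in the vesicle, only Crabp1, Rspo3 and Col3a1 reached 10 CPM in the explants, and all 3 were lower there. These 3 were not lower against the neural reference of the vesicle, and no such reference was made for the explants, where the mesenchyme and erythroid lists had median ratios of 0.214 and 0.157. Nr2f1 and Nr2f2 were under 5 CPM in both groups of the explants.

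In the explants, 8 of 13 tested feedback and target genes and 7 of 8 tested rostral midline factors were higher, and none of either list was lower. Their median ratios were 1.68 and 1.83. The subpallial list was divided in the explants, where Nkx2-1 (1.64) and Olig1 (2.33) were higher and Gsx2 (0.25) and Dlx2 (0.30) lower of 6 tested, with a median ratio of 1.44 against 0.54 in the vesicle. Of 164 genes named here by rank or list and tested in both libraries, 80 passed the threshold in the vesicle and 83 in the explants, 68 of them in the same direction and 1 (Id1) in opposite directions. In the explants, a YFP UMI was found in 71.1% of the Fgf8/Fgf17 cells and 70.2% of the others, and a tdTomato UMI in 8.36% (6.93 to 9.98%) and 5.19% (4.36 to 6.12%). By the genotypes in the study's methods, only the E11.5 embryos could hold YFP and only the E12.5 embryos tdTomato. The shares are of all cells of the pool, so that the tdTomato values are not the share of cells with a Dbx1 history.

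**Figure D5:**
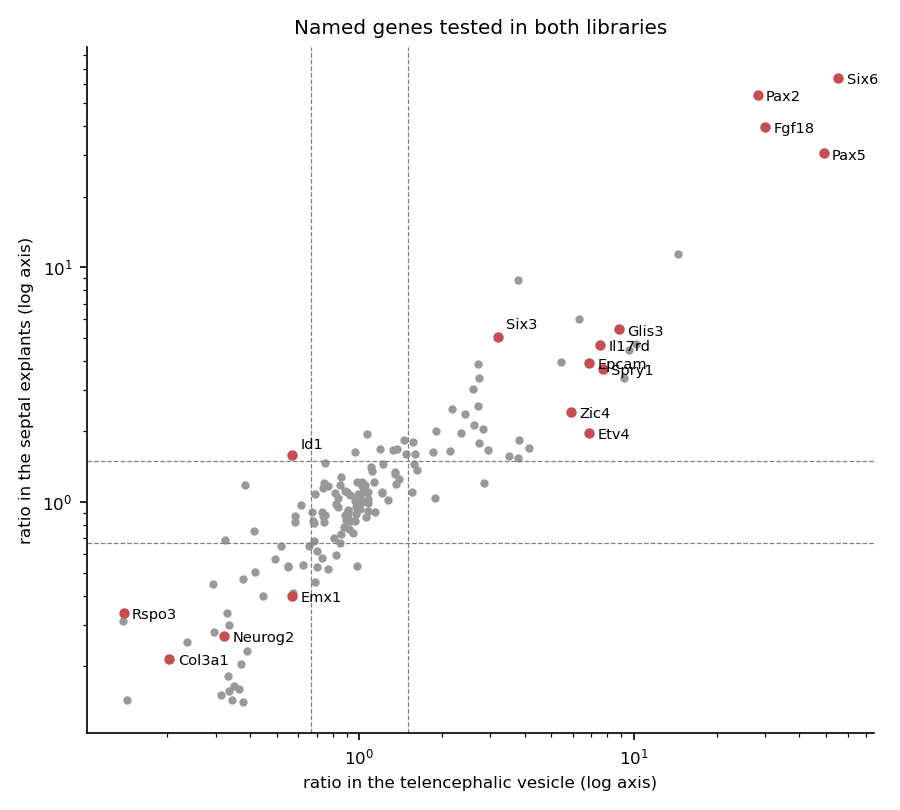
Ratio of CPM between Fgf8/Fgf17 cells and all other A>N cells in the telencephalic vesicle (horizontal log axis) and the septal explants (vertical log axis) for 164 named genes tested in both, with dashed lines at 1.5 times. Pax5, Pax2, Fgf18 and Six6 have ratios of at least 28.2 in both libraries, and Id1 is lower in the vesicle (0.57) and higher in the explants (1.59).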

How the data were processed

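Single cell libraries of embryonic mouse brain were used from the telencephalic vesicle and from septal explants, each pooled from several embryos. The deposited count matrices hold UMI counts per gene and barcode, made by the authors with Cell Ranger 7.1.0 (vesicle) and 2.1.1 (explants) on mm10, per the submitters' processing notes. The study's methods state that version 2.1.1 was run with default parameters. Whether intronic reads were counted is not otherwise given in the sources used here, and levels were not compared between libraries. The vesicle library held 194821794 UMIs in 14283 barcodes and the explant library 83103280 in 5827.

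Barcodes with at least 2500 UMIs and a mitochondrial share under 6% were kept, and the rule given at the start of the results was applied. UMIs were summed over cells, with exact Poisson intervals for CPM, exact Clopper-Pearson intervals for shares and exact conditional binomial intervals for ratios, all at 95% and for counting error only. A gene was tested when it reached 10 CPM in either group, and called past a ratio of 1.5 or its inverse. The rule genes and mitochondrial genes were left out of these counts. With 1 library per group no p-value was computed. Named genes were the 15 highest and 15 lowest ratios among genes with at least 20 CPM in the higher group, and the members of fixed gene lists. The cells, lists and tests were chosen with earlier results of these data known. Cells were clustered with scanpy 1.11.5 (2000 variable genes without those of the rule, 30 principal components, 15 neighbours, Leiden resolution 1), and doublets were called with Scrublet (741 of 11498 barcodes) but kept, with their removal as an alternative. Thinning drew 6000 UMIs per cell. Python 3.11.15, numpy 2.4.6, scipy 1.17.1 and pandas 2.3.3 were used. Gene positions came from GENCODE M21 on GRCm38, which matched 32158 of 32286 gene identifiers. Some genes of the lists enter the counts but are not reported here by name.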

Additional observations from a re-analysis of the deposited data

Results flagged for a closer look

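Id1, a target of BMP signals, went in opposite directions in the 2 libraries. Its ratio between Fgf8/Fgf17 cells and all other A>N cells was 0.568 in the telencephalic vesicle and 1.59 in the septal explants, and the difference was not tested, with 1 library each. Against the neural reference of the vesicle the ratio was 2.75.

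The LacZ sequence in the vesicle matrix, a reporter that wild-type embryos lack and that no comparison used, had 11 UMIs in 9 of 14283 barcodes, 1 of them a Fgf8/Fgf17 cell.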

How the results depend on the processing

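No paired analysis was possible because each group is 1 pooled library. The share of A>N cells was 6.34% with at least 3 ligand UMIs, 10.2% with at least 1, 5.49% (425 of 7736 cells) after thinning and 6.33% with A above 2 times N. The numbers of genes higher and lower, 457 and 358 as reported, became 237 and 208 with at least 1 ligand UMI, 763 and 582 after thinning, 8401 and 2174 with no filter on low levels, 197 and 178 at a fold of 2, and 184 and 170 for cells outside the main cluster, where 6 feedback and target genes were higher. The Six3 ratio was 3.33 with at least 3 UMIs, 2.40 with at least 1, 3.46 after thinning, 3.34 without doublets, 3.33 against cells without ligand UMIs, 3.37 as a mean of cells, 3.00 without non-neural clusters, 3.03 against the neural reference, 3.57 inside the main cluster and 1.99 outside it. The Spry1 ratio was 5.33 with at least 1 UMI, 9.42 after thinning, 8.27 without doublets, 10.0 against cells without ligand UMIs, 9.24 as a mean of cells, 11.6 with the same Wnt limit, 11.45 against the neural reference, 8.70 inside the main cluster and 4.55 outside it. The direction of these ratios held under all alternatives run. The numbers of genes tested are not given here for the alternatives, so that the gene counts carry no share.

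The alternatives on non-neural clusters, the Wnt limit and the main cluster were chosen after seeing the data. Of the 122 genes of the lists and ranks that were past the fold as reported, the number past it in the same direction was 101 with at least 1 ligand UMI, 115 after thinning, 116 as a mean of cells, 104 without non-neural clusters, 107 with the same Wnt limit, 91 against the neural reference, 75 outside the main cluster, and at least 119 under each of the other alternatives. Ratios below 1 turned above 1, first with the same Wnt limit and then against the neural reference, for Lmx1a (1.74 and 2.74), Rspo3 (1.58 and 1.52), Zfp804b (2.98 and 3.64), Apcdd1 (1.04 and 1.15), Bmp4 (3.89 and 19.9), Bmp6 (7.20 and 7.21), Id1 (2.21 and 2.75), Id3 (1.29 and 1.51), Ttr (2.34 and 2.31) and Wnt9a (2.94 and 4.80). They did so first without non-neural clusters and then against the neural reference for Crabp1 (1.09 and 1.18), Col3a1 (1.95 and 2.09), Col1a1 (2.36 and 2.71), Dkk2 (2.60 and 3.25), Lum (1.61 and 1.97) and Twist1 (2.70 and 3.56), and only against the neural reference for Bambi (1.60), Msx1 (6.83) and Msx2 (1.65). Bmp4 also turned after thinning (1.19) and as a mean of cells (1.09), and Bmp6 after thinning (1.02). Outside the main cluster Eomes (1.33), Shh (1.15) and Tfap2c (1.07) turned. These reference settings differ by construction in which cells they hold, and the causes of the other changes were not tested. With 1 library per group, the spread between embryos was not measured.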
